A study of Mus musculus with 10 samples.

Results

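The tryptase gene cluster of mouse chromosome 17 was examined in bone marrow-derived mast cells as the stretch from 25400000 to 25560000 of the mm9 build, which holds Prss34, Tpsab1, Tpsb2 and Tpsg1. Every peak that overlapped this stretch, here called the tryptase window, was taken. There were 80 such peaks of 234627 in the 5 deposited lists. The mark histone H3 lysine 27 acetylation (H3K27ac), found at active promoters and enhancers, had 18, 11 and 10 of them in replicates 1, 2 and 3. Histone H3 lysine 4 monomethylation (H3K4me1), a mark of both active and poised enhancers, had 28 and 13 in replicates 1 and 2. Joined where they overlapped or touched, they formed 27 elements of 98910 in the genome. The labels name no mutant allele and no treatment. Bone marrow of C57BL/6 mice 6 to 8 weeks old was grown for 4 weeks with interleukin-3 at 20 ng/ml, and more than 99% of the cells carried the IgE receptor and Kit. The 10 samples were 3 H3K27ac immunoprecipitates, 2 H3K4me1 immunoprecipitates and the input of each, and each list was called against its own input. The labels did not say whether replicates were separate cultures or animals, so a p-value over lists measures only the spread between these samples. The cells are a culture model and not tissue mast cells, and in bulk chromatin a mark in fewer cells and a lower level in each cell cannot be told apart.

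Tryptases are trypsin-like serine proteases that mast cells store in their granules with heparin and release when the IgE receptor is crosslinked. Tpsb2 encodes mouse mast cell protease 6 (mMCP-6), the granule tryptase of connective tissue mast cells. Tpsab1 encodes the related mMCP-7, whose transcript is misspliced in C57BL/6 mice, and RefSeq lists the gene as a transcribed pseudogene in its C57BL/6J assembly. Tpsg1 encodes transmembrane tryptase, which is held to the membrane, and Prss34 encodes mMCP-11, a protease known for its high level in basophils. In the RefSeq gene order of GRCm38.p6, Prss34 is followed by a snoRNA gene, Prss28 and Prss29, which encode the implantation serine proteases, a pseudogene, Tpsab1, Tpsb2, Tpsg1 and then Cacna1h, which encodes a T-type calcium channel. The gene positions of mm9 used here are approximate: 25435000 for Prss34, 25480000 for Tpsab1 and 25503000 for Tpsb2. No mm9 position of Tpsg1 was used, so no peak was assigned to it.

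RefSeq promoters, 250 bases before to 50 bases after an annotated start, were at hand for 2 of the 4 genes. They are shown because H3K4me1 lay at the Prss34 position without H3K27ac, and because Tpsg1 comes after Tpsb2 in the gene order. The Prss34 promoter is GRCm38.p6 chr17:25298144-25298443, plus strand, and Tpsg1 has 2 starts on the plus strand, chr17:25369023-25369322 and chr17:25370303-25370602. These positions are of another build than the peaks and cannot be set beside them directly. Capitals mark AGATAA and TGATAA, the core that GATA factors bind, CATGTG, an E-box of the kind that MITF binds, and TGTGGT, the core that RUNX factors bind.
Prss34: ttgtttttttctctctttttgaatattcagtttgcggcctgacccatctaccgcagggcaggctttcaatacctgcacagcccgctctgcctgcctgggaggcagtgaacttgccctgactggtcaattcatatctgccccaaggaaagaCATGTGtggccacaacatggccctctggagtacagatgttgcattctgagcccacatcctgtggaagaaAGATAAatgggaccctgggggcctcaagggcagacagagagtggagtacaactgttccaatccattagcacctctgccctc
Tpsg1, first start: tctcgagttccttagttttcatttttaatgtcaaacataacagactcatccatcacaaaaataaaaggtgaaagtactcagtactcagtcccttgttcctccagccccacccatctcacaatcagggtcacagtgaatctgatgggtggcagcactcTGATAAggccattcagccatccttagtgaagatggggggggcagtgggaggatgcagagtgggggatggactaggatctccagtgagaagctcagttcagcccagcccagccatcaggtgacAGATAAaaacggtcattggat
Tpsg1, second start: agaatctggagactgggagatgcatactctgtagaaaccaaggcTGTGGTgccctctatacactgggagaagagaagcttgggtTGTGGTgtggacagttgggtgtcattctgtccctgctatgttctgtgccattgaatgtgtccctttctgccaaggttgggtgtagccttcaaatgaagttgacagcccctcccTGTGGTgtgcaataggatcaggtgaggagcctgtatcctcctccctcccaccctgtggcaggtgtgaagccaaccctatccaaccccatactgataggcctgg

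The Prss34 promoter held 1 AGATAA, 31 bases before the start, and 1 CATGTG, 100 bases before it. The first Tpsg1 promoter held 1 TGATAA, 93 bases before the start, and 1 AGATAA, 29 bases after it. The second held TGTGGT at 3 places and no GATA core. Searched on both strands, AGATAA or TGATAA occurred in 18.6% of 32851 RefSeq promoters, CATGTG in 14.2% and TGTGGT in 16.8%. No motif overlapped another, and CACGTG, TTCNNNGAA and TATAAA had no match in these 3 windows. A match of letters does not show that a factor binds there.

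H3K27ac filled the neighbourhood of Tpsb2 and was nearly absent at the other 2 gene positions. Within 5 kb on either side of the Tpsb2 position, H3K27ac peaks covered 9375, 8990 and 8583 bp in replicates 1, 2 and 3, which was 93.7%, 89.9% and 85.8% of that stretch. Around Prss34 they covered 0, 0 and 681 bp, and around Tpsab1 they covered 0 bp in all 3 lists. The Tpsb2 values did not overlap those of the other positions, while Prss34 and Tpsab1 were not separated by their spread. H3K4me1 was found around Tpsb2 and Prss34 in both lists and around Tpsab1 in 1 list. It covered 2949 and 1742 bp around Tpsb2 in replicates 1 and 2, 1560 and 1555 bp around Prss34, and 972 and 0 bp around Tpsab1. A missing peak says only that the caller listed none there, at its q limit of 0.001 and its other settings for that list. Tpsab1 and Tpsb2 encode related proteins, and how reads that match both were placed is not stated in the labels or headers, so peaks over shared sequence are uncertain.

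**Figure D1:**
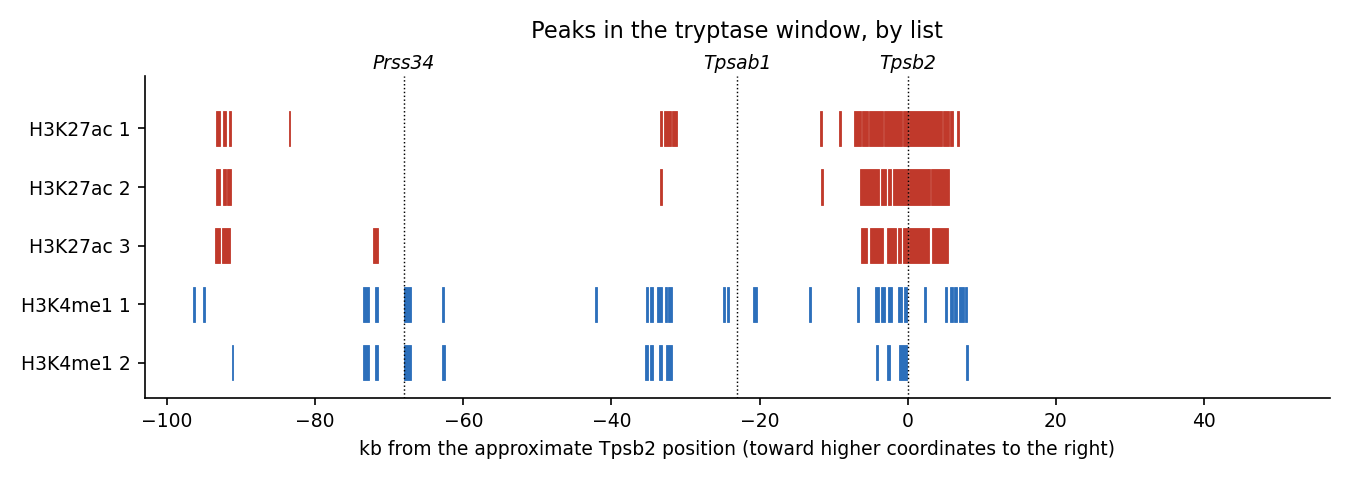
Peaks of each list along the tryptase window, in kb from the approximate Tpsb2 position; each bar is 1 peak, H3K27ac in red and H3K4me1 in blue, with the line width as the least width drawn, and dotted lines mark the approximate gene positions. The H3K27ac bars crowd at Tpsb2, the H3K4me1 bars are spread from Prss34 to Tpsb2, and the 48.8 kb at the right hold no peak.

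The H3K27ac at Tpsb2 was a stretch of 12857 bp, from 25495727 to 25508583. Peaks covered 92.9%, 85.3% and 77.8% of it in replicates 1, 2 and 3, in 7, 6 and 7 pieces. The longest piece measured 4490 bp in replicate 1, where it ranked 388 by length among 39837 peaks. In replicates 2 and 3 the longest measured 2783 and 2695 bp and ranked 989 and 983. The lists broke this stretch at 6, 5 and 6 places, and the only bases inside it left without a peak by all 3 lists were the 131 bp from 25503001 to 25503131, next to the approximate Tpsb2 position. On the lower side of this break the peaks ended at 25503000, 25502985 and 25502999 in replicates 1, 2 and 3, a range of 15 bp. On the higher side they began again at 25503132, 25503217 and 25503218, a range of 86 bp. The breaks were thus 131, 231 and 218 bp long. The caller extended the tags of these lists to 199, 210 and 201 bp, from tag sizes of 116, 142 and 172 bp. The part of these settings in the number and length of the breaks was not tested. The annotated start of Tpsb2 in mm9 was not used here, so the distance of this break from it was not analysed. The stretch is named by the nearest position used and was assigned to no gene. If the distance from Prss34 to Tpsg1 in GRCm38.p6 held in mm9, both Tpsg1 starts would lie between 25503132 and 25508583. This was not tested, so H3K27ac of Tpsb2 and of Tpsg1 cannot be told apart there.

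The break divided the stretch into the 2 longest elements of the window, both of which carried both marks. The lower one, from 25495727 to 25503000, was 7274 bp long and ranked 200 by length among all 98910 elements. It was the only element of the window with a peak of all 5 lists, 1 of 27, where 7.87% of all elements had one. Its highest folds, the authors' ratio of pileup to the local background, were 17.4, 11.3 and 16.3 for replicates 1, 2 and 3 of H3K27ac. For H3K4me1 they were 9.99 in replicate 1 and 7.10 in replicate 2. Within their lists these stood at the top 9.17%, 12.5% and 5.63% for H3K27ac, and at the top 10.5% and 31.8% for H3K4me1. The higher one, from 25503132 to 25508583, was 5452 bp long and ranked 541 by length. Its highest folds were 20.9, 13.6 and 11.2 in the H3K27ac lists, at the top 4.99%, 6.08% and 19.9%. It was thus set higher than the lower element in replicates 1 and 2 and below it in replicate 3. H3K4me1 replicate 1 had 2 peaks in it, the better with a fold of 5.54 at the top 67.8%, and H3K4me1 replicate 2 had none.

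H3K27ac was wider than H3K4me1 on both sides of the Tpsb2 position. In the 10 kb below it H3K27ac covered 70.1%, 58.6% and 51.0% in replicates 1, 2 and 3, and H3K4me1 covered 28.6% and 17.4% in replicates 1 and 2. In the 10 kb above it H3K27ac covered 58.9%, 51.0% and 49.0%, and H3K4me1 covered 21.9% and 3.67%. Each H3K27ac value was above each H3K4me1 value of its side, and H3K4me1 replicate 2 had little cover above the position. The peak next to the break was found in both H3K4me1 lists with its summit at the same base, 25502631, in a peak of 508 bp in replicate 1 and of 1073 bp in replicate 2. Below the break the last H3K4me1 peak ended at 25502957 in replicate 1 and at 25502854 in replicate 2. From these ends, across the break, H3K4me1 had no peak for 2228 bp in replicate 1 and for 7961 bp in replicate 2. Both stretches were covered by H3K27ac for the most part. Small elements followed beyond 25508583: 1 from 25508767 to 25509150 and 1 from 25509731 to 25510571 joined peaks of H3K27ac replicate 1 and H3K4me1 replicate 1, and the last of the window, from 25510782 to 25511182, had peaks of both H3K4me1 lists and no H3K27ac. With gaps of up to 1000 bp joined, everything from 25495727 to 25511182 became a single stretch of 15456 bp, which ranked 264 by length among 55070 so joined. It held 76.0%, 85.0% and 79.8% of the H3K27ac cover of the window, and 43.9% and 30.3% of its H3K4me1 cover.

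**Figure D2:**
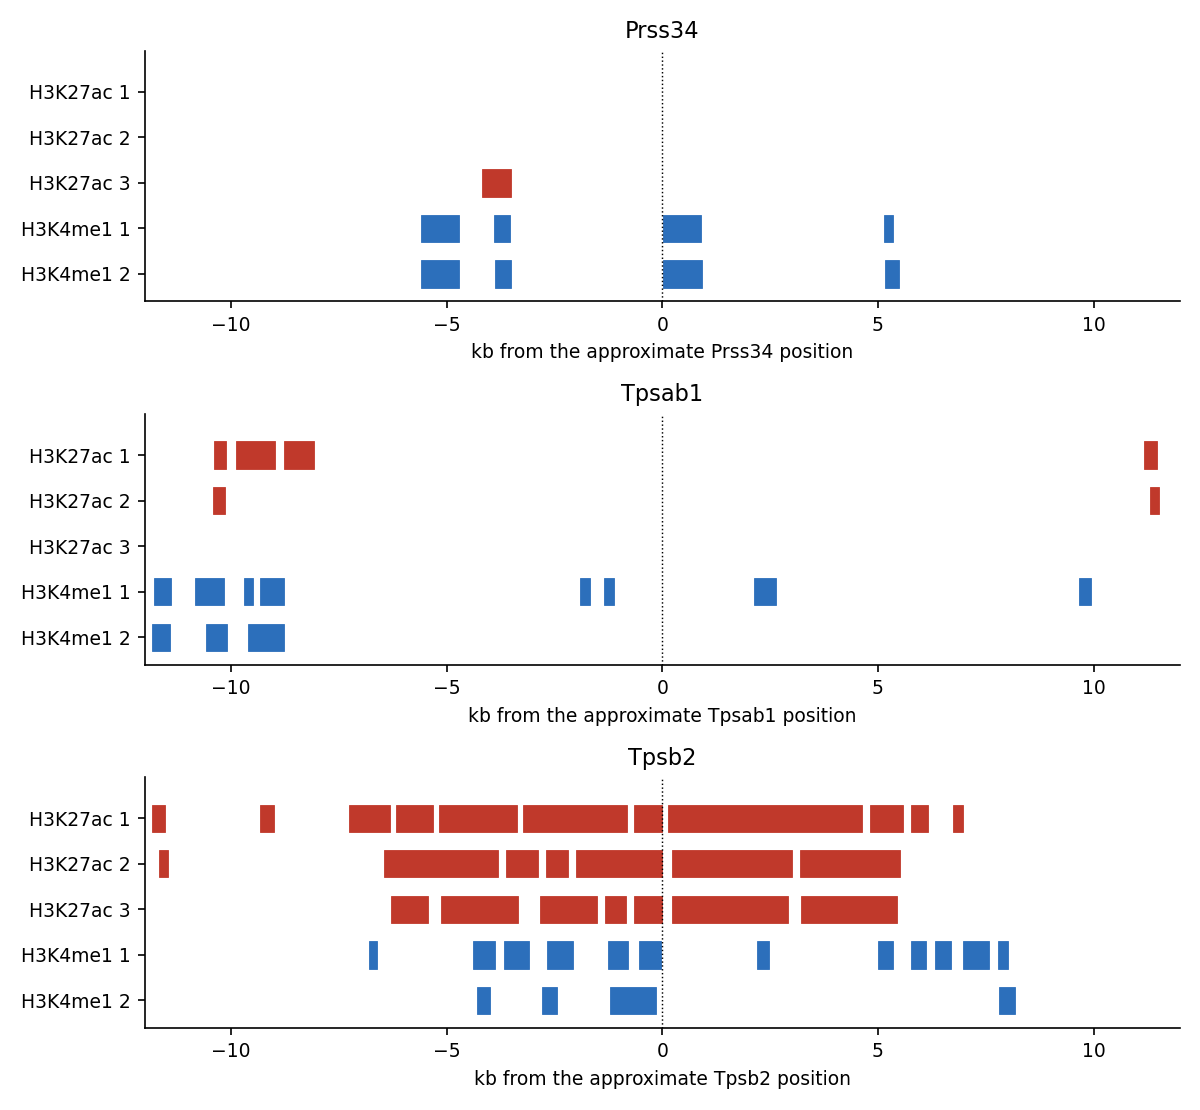
Peaks of each list within 12 kb of the approximate positions of Prss34, Tpsab1 and Tpsb2, in kb from each position; bars are peaks, H3K27ac in red and H3K4me1 in blue. At Tpsb2 all 3 H3K27ac lists show a break of 131 to 231 bp beside the position. At Prss34 a pair of H3K4me1 peaks begins beside the approximate position, and at Tpsab1 only H3K4me1 replicate 1 has peaks within 5 kb.

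Prss34 carried H3K4me1 and no H3K27ac at its position. The element there, from 25435006 to 25435915, held a peak of 896 bp with a fold of 8.71 in H3K4me1 replicate 1 and of 890 bp with a fold of 5.88 in replicate 2, at the top 19.9% and 55.6% of their lists. The peaks began 6 and 26 bp from the approximate position, which is not an annotated start, so their distance from the Prss34 start is not known. Their ends lay at 25435901 and 25435915, so the lists placed the element almost alike. The nearest H3K27ac peaks were 15.4, 23.3 and 3.50 kb away in replicates 1, 2 and 3. The last of these, from 25430816 to 25431496 in replicate 3, had a fold of 4.84 at the top 91.1% of its list and no counterpart in replicates 1 and 2.

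The highest H3K4me1 fold of the window in both lists lay below Prss34. The element there, from 25429398 to 25430287, carried H3K4me1 alone. Its fold was 12.4 in replicate 1, at rank 2160 or the top 3.05% of the list, and 10.8 in replicate 2, at rank 2214 or the top 3.73%. Its edges were almost the same in the lists, 25429402 to 25430287 in replicate 1 and 25429398 to 25430286 in replicate 2. The next one, from 25430816 to 25431496, contained the H3K27ac peak of replicate 3 described above, and had H3K4me1 folds of 8.96 and 9.76. An element of 350 bp from 25440138 to 25440487 stood on the other side of Prss34, with H3K4me1 folds of 4.28 and 5.38 and no H3K27ac. These 3 elements and the one at Prss34 were thus found in both H3K4me1 lists, and 3 of them had no H3K27ac peak in any list. Between 25440488 and 25460783 no list had a peak over 20.3 kb, on the side of Prss34 where Prss28 and Prss29 follow in the gene order.

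Tpsab1 had little of either mark at its position. The nearest H3K27ac peaks were 8.08, 10.1 and 16.7 kb away in replicates 1, 2 and 3. H3K4me1 replicate 1 had 3 peaks within 5 kb, of 232, 240 and 500 bp, with folds of 6.44, 6.28 and 7.22 at the top 50.5%, 53.6% and 37.8% of that list. H3K4me1 replicate 2 had none of them, and its nearest peak was 8.78 kb away. The caller extended tags to 203 bp in H3K4me1 replicate 1 and to 255 bp in replicate 2. In replicate 2 the shortest peak of the window measured 261 bp. The part of this setting in the absence of the peaks of 232 and 240 bp was not tested. No H3K27ac list had a peak over the 19.3 kb from 25471919 to 25491169, which contains the position.

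A group of elements about 10 kb below Tpsab1 carried H3K4me1 in both lists and H3K27ac in some. The element from 25469155 to 25469892 had peaks of 4 lists, all but H3K27ac replicate 3. Its H3K27ac folds were 7.22 and 5.88 in replicates 1 and 2, and its H3K4me1 folds were 9.70 and 6.20. The pileup of this element, the height of stacked tags at the summit in the caller's scaled units, was 57.2 in H3K4me1 replicate 1 and 48.6 in replicate 2, the top 0.696% and 0.823% of the lists, while by fold it stood at the top 12.4% and 49.1%. It was the highest H3K4me1 peak of the window by pileup and not by fold. The adjoining element from 25470112 to 25471918, 1807 bp long, had 2 peaks of H3K27ac replicate 1, with a highest fold of 7.82, and H3K4me1 folds of 8.90 and 6.22. H3K27ac replicates 2 and 3 had no peak in it. Elements from 25467551 to 25467951 and from 25468161 to 25468610 had H3K4me1 of both lists, with folds of 4.66 and 5.81 in the first and of 5.02 and 4.98 in the second, and no H3K27ac. H3K27ac was found in this group by 2 lists at most, so its presence there rests on replicates 1 and 2.

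The highest H3K27ac fold of the window in 2 of 3 lists was far from the tryptases, at the lower end of the window. In the element from 25410399 to 25411673 the fold reached 30.5 in replicate 1, 16.7 in replicate 2 and 13.9 in replicate 3. These peaks ranked 323, 734 and 3180, the top 0.811%, 2.16% and 10.4% of the lists. The element next to it, from 25409490 to 25410193, had folds of 11.5, 10.1 and 8.03. Neither held an H3K4me1 peak. H3K4me1 lay outside them, in replicate 1 from 25406500 to 25406753 and from 25407898 to 25408130, and in replicate 2 from 25411698 to 25411958, which began 24 bp past the edge of H3K27ac. No gene was assigned to these elements. The element from 25419407 to 25419628 was a single peak of H3K27ac replicate 1 with a fold of 5.95.

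**Figure D3:**
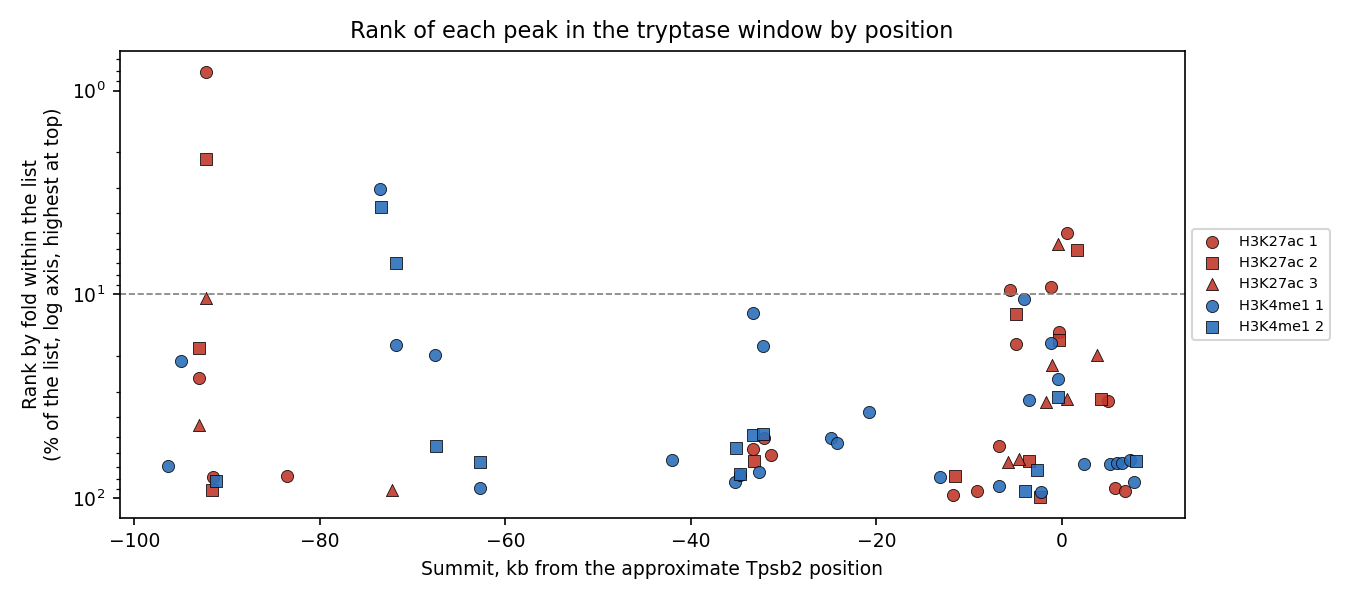
Rank by fold of each of the 80 peaks within its own list, as a percentage of the list on a log axis with the highest at the top, against the distance of its summit from the approximate Tpsb2 position in kb; colours give the mark, symbols the replicate, and the dashed line the top 10%. The highest H3K27ac ranks lie at the lower end of the window and near Tpsb2, and the highest H3K4me1 ranks just below Prss34.

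In the top 10% by fold were 4 of 18, 2 of 11 and 1 of 10 peaks of H3K27ac replicates 1, 2 and 3, against 10.0%, 10.0% and 10.2% of all peaks there with ties counted, and 1 of 28 and 2 of 13 peaks of H3K4me1 replicates 1 and 2, against 10.0% each. These counts are near the shares of the lists and are not a result about the window. The median peak of the window stood at the top 53.1%, 32.7% and 33.1% of the H3K27ac lists, and at the top 65.0% and 56.8% of the H3K4me1 lists. By length the elements at Tpsb2 stood at the top 0.202% and 0.547% of all elements, and a longer element holds more peaks.

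Of the 27 elements, 7 carried both marks, where 19.1% of all elements did. H3K27ac alone was on 5, against 22.3% of all, and H3K4me1 alone on 15, against 58.6% of all. A peak of only 1 list made up 11 elements, against 40.7% of all. These counts are near the shares of the genome and are not a result about the window. Of the 7 elements with both marks, 4 lay from 25495727 upward, 2 in the group below Tpsab1 and 1 below Prss34. The remaining H3K27ac elements, from 25491170 to 25491526 in replicates 1 and 2 and from 25493678 to 25493994 in replicate 1, were short peaks below the Tpsb2 stretch, with folds of 4.27 and 5.26 in the first and of 4.71 in the second. H3K4me1 replicate 1 alone had a peak from 25460784 to 25461033 and another from 25489655 to 25489948, with folds of 5.67 and 4.89. It also had the peak from 25509327 to 25509700, with a fold of 5.55, beyond the stretch.

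Replicate 1 of each mark had the most peaks of the window and the smallest share of them that recurred. In the lists of H3K27ac replicates 1, 2 and 3, 9 of 18, 9 of 11 and 9 of 10 peaks overlapped a peak of both other lists of the mark, against 56.5%, 68.5% and 75.7% of all peaks. In H3K4me1 replicates 1 and 2, 14 of 28 and 12 of 13 recurred in the other list, against 65.0% and 73.8%. Replicate 1 of each mark also had the most immunoprecipitate tags, 16356587 for H3K27ac and 19513552 for H3K4me1, against 10457047 to 14685161 in the others, and the part of this depth in the difference was not tested. Overlap with the other mark was seen at 11 of 18, 7 of 11 and 7 of 10 H3K27ac peaks, against 48.1%, 47.3% and 47.6% of all, and at 14 of 28 and 6 of 13 H3K4me1 peaks, against 32.1% and 32.5%. Median lengths of the H3K27ac peaks in the window were 624.5, 552.0 and 1000 bp, against 493, 487 and 478 bp in the whole lists. Those of the H3K4me1 peaks were 364.5 and 401 bp in the window, against 356 and 437 bp in the whole lists, and the part of peak length in the overlap was not tested.

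Where lists shared a peak, its summits were farther apart for H3K27ac than for H3K4me1, with no test of this difference. The nearest summit in the other list was at a median of 152.5 bp from replicate 1 to replicate 2 of H3K27ac over 12 shared peaks, of 159 bp from replicate 1 to 3 over 9 peaks, and of 412 bp from replicate 2 to 3 over 9 peaks. It was at 45.5 bp over the 14 shared peaks of H3K4me1 replicate 1. The largest distances were 1859, 1211 and 1111 bp in these H3K27ac pairs and 743 bp in H3K4me1, and the part of peak length in them was not tested.

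H3K27ac covered more of the window than H3K4me1 in every list. Its peaks covered 10.3%, 8.06% and 7.83% of the window in replicates 1, 2 and 3, and H3K4me1 peaks covered 7.18% and 4.35% in replicates 1 and 2. The means were 8.75 ± 1.39% (SD, n = 3) for H3K27ac and 5.77 ± 2.00% (SD, n = 2) for H3K4me1, a difference of 2.98 percentage points. The exact permutation test over lists, two-sided, gave p = 0.1, the smallest p that 3 against 2 lists allow. The lists of the marks were no longer separated with peaks joined across 1000 bp, where the difference was 1.91 (exact permutation, p = 0.6), or in a window reaching 10 kb past the outer gene positions, where it was 4.02 (exact permutation, p = 0.3). The number of peaks went the other way, 13.0 ± 4.36 (SD, n = 3) for H3K27ac and 20.5 ± 10.6 (SD, n = 2) for H3K4me1, and this difference of -7.5 did not exceed the spread (two-sided, exact permutation, p = 0.4). It rested on 1 list, since it was 0 with H3K4me1 replicate 1 left out. Mark and version of the peak caller changed together, so these cannot be told apart.

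On chromosome 17 as a whole the order of the marks was the reverse. From its first to its last peak, H3K27ac covered 1.53%, 1.30% and 1.15% and H3K4me1 1.95% and 1.97%. The window was therefore covered 6.75, 6.21 and 6.79 times as densely as the chromosome by H3K27ac, and 3.67 and 2.22 times as densely by H3K4me1. The window was chosen around genes known from mast cells, so a density above that of the chromosome is a description and was not tested.

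**Figure D4:**
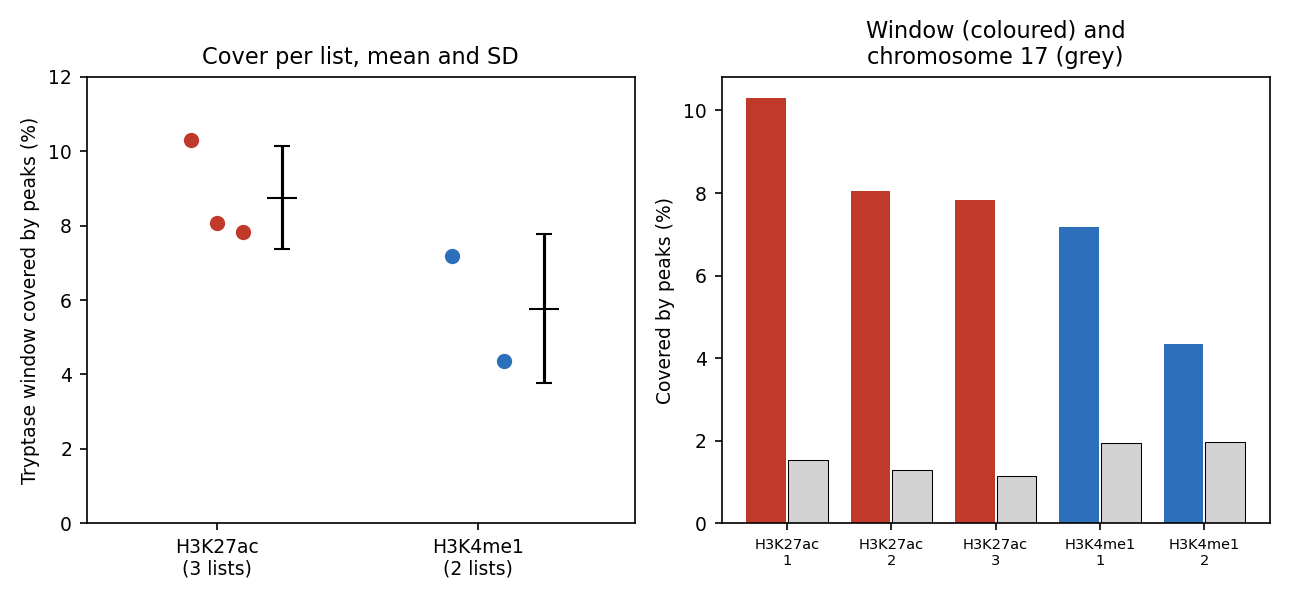
Left, percentage of the tryptase window covered by peaks, each point a list, with the mean and SD of the 3 H3K27ac and 2 H3K4me1 lists; right, the same percentage per list in colour beside that of chromosome 17 in grey. The H3K27ac lists lie between 7.83% and 10.3% and the H3K4me1 lists at 7.18% and 4.35%, and all grey bars are below 2%.

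No list had a peak at the end of the window on the side of Cacna1h. From 25511183 to the end of the window at 25560000, 48.8 kb held no peak of any list, and the last H3K27ac peak ended at 25509981. On the opposite side the first 6.50 kb of the window held none. In between, the longest stretches free of H3K27ac were the 38.1 kb from 25431497 to 25469590, which contain Prss34, and the 19.3 kb that contain Tpsab1. Regions found in every list of a mark numbered 4 of 13 for H3K27ac, or 30.8% against 45.5% in the genome, and 12 of 27 for H3K4me1, or 44.4% against 51.2%. The 4 of H3K27ac were the pair at the lower end of the window and the pair at Tpsb2. The 12 of H3K4me1 were 4 around Prss34, 4 in the group below Tpsab1, 3 within the lower element at Tpsb2 and 1 at the higher end, from 25510782 to 25511182. The requirement was 3 lists for H3K27ac and 2 for H3K4me1. With H3K27ac regions taken from at least 2 lists there were 6. From the group below Tpsab1 these included only the H3K27ac in the element from 25469155 to 25469892. They also included the short element from 25491170 to 25491526.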

How the data were processed

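Per the labels' protocols, ChIP-seq for H3K27ac and H3K4me1 was run on an Ion Torrent Proton for 5 immunoprecipitates with 5 inputs. Each immunoprecipitate was called singly against its input by MACS2 in narrow mode, at a q limit of 0.001 and with 1 tag kept per position, per the file headers. Version 2.1.1.20160309 made the H3K27ac lists and version 2.0.10.20130306 the H3K4me1 lists. The build was mm9 and the caller release only 2.0.10.20130306 in the submitters' processing notes, with the aligner not given in the sources used here. After that filter the lists rest on 10457047 to 19513552 immunoprecipitate tags and 9433267 to 19265001 input tags.

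The deposited pileup signal is the height of extended tags at the summit, with the larger library scaled to the smaller, per the file headers. The H3K27ac runs also asked for signal scaled to read number, so pileups were not compared between marks. The deposited fold enrichment is a ratio to the local background, and the −log10 q-value and −log10 p-value are the authors' per-peak values. These were ranked only within a list. The authors' scores give no count per region, so no level was compared between lists.

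Peaks were joined where they overlapped or touched, marks shared an element from 1 bp, and cover counted each base no more than 1 time. Differences between marks were tested by exact permutation over lists. The members and lists were chosen with earlier results of these data known. Named genes were the 4 members, and elements described in full were those at or nearest to their positions and those with a peak of all 5 lists; the others were described after their values were seen. Gene names and promoters came from RefSeq, GRCm38.p6. Alternatives were a −log10 q of at least 5 or 10, joining across 1000 bp, overlap of at least 0.5 of the shorter, each list left out, a window reaching 10 kb past the outer gene positions, cover relative to the list, other ranks and a replicate block. The code was tested on simulated data. Calculations used Python 3.11.15, NumPy 2.4.6 and pandas 2.3.3, with Matplotlib 3.10.9 for figures.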

Additional observations from a re-analysis of the deposited data

How the results depend on the processing

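Counts of elements in the window depended on the limit and on joining. The shares of all elements in the genome at these settings were not computed. With a −log10 q of at least 10 there were 16 elements, 4 with both marks and 2 with H3K27ac only, and 6 H3K4me1 consensus regions. With peaks joined across 1000 bp there were 15 elements, of which 4 had both marks, 3 H3K27ac only and 8 H3K4me1 only, with 2 consensus regions of H3K27ac and 6 of H3K4me1. Leaving out 1 list at a time gave 19 to 29 elements, 4 to 8 with both marks, 3 to 8 with H3K27ac only and 7 to 19 with H3K4me1 only, with 6 to 7 consensus regions for H3K27ac and 13 to 28 for H3K4me1. Without H3K27ac replicate 1 there were 3 elements with H3K27ac only. Without H3K4me1 replicate 1 there were 4 with both marks, 8 with H3K27ac only and 7 with H3K4me1 only. Without H3K27ac replicate 2 or 3 there were 7 H3K27ac consensus regions, where peaks of 2 lists were enough in place of 3. Without H3K4me1 replicate 1 there were 13 of H3K4me1 and without replicate 2 there were 28, the peaks of the single list that remained. Leaving out a list thus lowered the requirement, so these consensus counts are not like those of the full set.

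The difference in cover kept its direction under every alternative run, but the marks' lists overlapped with peaks joined across 1000 bp (1.91 percentage points, exact permutation p = 0.6) and in the window reaching 10 kb past the outer gene positions (4.02, exact permutation p = 0.3). With 1 list left out it ran from 1.57 percentage points without H3K4me1 replicate 2 to 4.39 without H3K4me1 replicate 1. The difference in peak number ran from -15 without H3K4me1 replicate 2 to 0 without H3K4me1 replicate 1. With a replicate block over replicates 1 and 2 the differences were 3.44 percentage points and -6.0 peaks, each with the same direction. The block took lists with the same number as pairs. Elsewhere they were not taken as pairs, since the sample titles count through all 5 immunoprecipitates.

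By pileup in place of fold, the mean rank of the highest peak was the top 6.09% for H3K27ac, against 2.87% by fold, and 0.759% for H3K4me1, against 3.39% by fold. By −log10 q it was 4.37% for H3K27ac and 1.89% for H3K4me1. The mean share of H3K27ac window peaks that overlapped H3K4me1 was 50.0% with a −log10 q of at least 10, against 64.9%. The mean share of H3K4me1 window peaks that overlapped H3K27ac was 42.3% with at least 5 and 43.8% with at least 10, against 48.1%. The causes were not tested. Distances from the gene positions to the nearest peaks moved by less than the spread between lists with a −log10 q of at least 5 or 10. Tags per list limit which weak peaks pass, and a missing peak is no evidence that a mark is absent.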
